A study of Mus musculus with 2 samples.

Results

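The contractile apparatus of smooth muscle and its transcriptional activators were followed in embryonic mouse ureters exposed to the GSK3 inhibitor BIO. The set comprised 10 genes, picked by name from the gene annotation of the arrays: the contractile and cytoskeletal genes Acta2, Actg2, Tagln, Cnn1, Myh11, Tpm2, Des and Lmod1, and the activator genes Myocd and Srf. They were represented by 12 probes out of 39429, and the arrays held 29924 genes by name. Every ureter came from wildtype NMRI embryos of undetermined sex, had been isolated at E12.5 and had then been kept as an explant for 18 h. The BIO group received 10 µM BIO, which stabilizes the WNT effector CTNNB1, and the control group received the solvent DMSO at 2 parts per 1000. Each RNA came from a pool of whole ureters, so that epithelium, mesenchyme and vessels were measured together. There were 2 arrays, and on each of them control RNA and BIO RNA had been hybridized together in different dyes. BIO RNA was red in replicate 1 and green in replicate 2. Replicates 1 and 2 are thus 2 pairs of pools. The standard errors and p-values combine the spread between these 2 arrays with a prior spread taken from all probes, which weighs more with so few arrays.

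In the developing ureter, smooth muscle cells arise from the mesenchyme that surrounds the ureteric epithelium, under the influence of signals such as SHH and BMP4. Differentiated smooth muscle appears in the ureter only at later stages than that of these explants. Their contractile genes are activated by the transcription factor SRF, which binds a short element called the CArG box, and by its potent coactivator myocardin, the product of Myocd. SRF is present in most cell types, and its partners, among them myocardin-related and ternary complex factors, determine whether contractile or growth-related targets are transcribed.

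As the CArG box is the element through which SRF acts, the 250 bases before the transcription start were searched for it in the RefSeq promoters of GRCm38.p6, of which a sequence was at hand for 6 of the 10 genes. A CArG box has a run of A or T bases between a leading CC and a trailing GG, and the reverse complement of a CArG box is again a CArG box, so that a search of 1 strand covers both. Such a box occurred in 1.47% of 32851 promoters, and a box with 1 G or C in its central run in 7.24%. The sequences of Acta2, which had the largest fall among the 10 genes, of Srf, and of Des and Cnn1, which fell without a box in this window, are given here 5′ to 3′. Capitals mark CArG boxes, including those with 1 changed base. The stretches are chr19:34255374-34255623 on the minus strand, chr17:46556163-46556412 on the minus strand, chr1:75360042-75360291 on the plus strand, and chr9:22099003-22099252 on the plus strand.
Acta2: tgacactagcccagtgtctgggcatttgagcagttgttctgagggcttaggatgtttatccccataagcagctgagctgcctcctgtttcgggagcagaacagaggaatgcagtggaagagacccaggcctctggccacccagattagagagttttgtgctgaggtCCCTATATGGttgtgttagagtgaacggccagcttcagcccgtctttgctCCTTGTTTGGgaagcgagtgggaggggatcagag
Srf: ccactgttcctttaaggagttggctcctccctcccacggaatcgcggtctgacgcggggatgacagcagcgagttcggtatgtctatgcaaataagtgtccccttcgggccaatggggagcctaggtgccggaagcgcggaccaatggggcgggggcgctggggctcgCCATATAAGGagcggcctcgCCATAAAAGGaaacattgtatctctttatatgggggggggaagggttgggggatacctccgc
Des: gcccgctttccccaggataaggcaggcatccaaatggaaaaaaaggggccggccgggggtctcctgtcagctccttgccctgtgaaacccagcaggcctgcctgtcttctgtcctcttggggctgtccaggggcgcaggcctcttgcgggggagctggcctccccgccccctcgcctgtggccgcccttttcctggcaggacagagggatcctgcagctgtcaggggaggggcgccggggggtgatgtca
Cnn1: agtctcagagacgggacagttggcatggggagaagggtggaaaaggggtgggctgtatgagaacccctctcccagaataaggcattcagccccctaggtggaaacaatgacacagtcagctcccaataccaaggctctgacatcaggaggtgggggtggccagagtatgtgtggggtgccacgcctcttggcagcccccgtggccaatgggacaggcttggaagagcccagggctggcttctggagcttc

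The Acta2 promoter held 2 CArG boxes with 1 changed base each, from 84 to 75 and from 34 to 25 bases before the start. The Srf promoter held 2 unchanged boxes, from 82 to 73 and from 62 to 53 bases before the start. The other sequences searched, those of Des, Cnn1, Tpm2 and Lmod1, had neither kind within these 250 bases. The letters CTTTGAT and CTTTGAA, which are recognized by the TCF/LEF partners of CTNNB1, were found on either strand in 7.48% of all promoters and in none of the 6 sequences. These matches are descriptions of the letters in this window and say nothing about binding.

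Across the arrays, 28824 probes for 21598 genes were well above background and could be tested. The log2 ratio of BIO over control had a median of -0.008 over all genes tested. With limma and Benjamini-Hochberg adjustment, 3186 genes fell and 1974 rose. Both arrays lay on the same slide. From 70.1% to 80.9% of the spots were well above background in a channel.

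Of the 10 genes, 9 could be tested. Of these, 6 fell with BIO, namely Acta2, Des, Actg2, Tagln, Myh11 and Cnn1, while 14.8% of all genes tested fell. None of the 9 rose, against 9.14% of all genes. The 3 that did not pass the test were Tpm2, Myocd and Srf, and Lmod1 was not above background. The median log2 ratio of the 9 genes was -0.53, with -0.68 in replicate 1 and -0.61 in replicate 2. This median is the value of Myh11, a dim gene. It was -0.75 without Myh11 and -1.02 with the processed signals. Among the 7 contractile genes tested, the median was -0.99. The study states an intensity and fold-change rule for its other arrays, which requires a signal of at least 100 and at least a 2-fold difference on both arrays. By this rule 2 of the 9, Acta2 and Des, were lower, against 2.07% of all genes, and none was higher, against 0.945%. As whole ureters were profiled, fewer cells expressing these genes and less RNA of them per cell cannot be told apart.

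**Figure D1:**
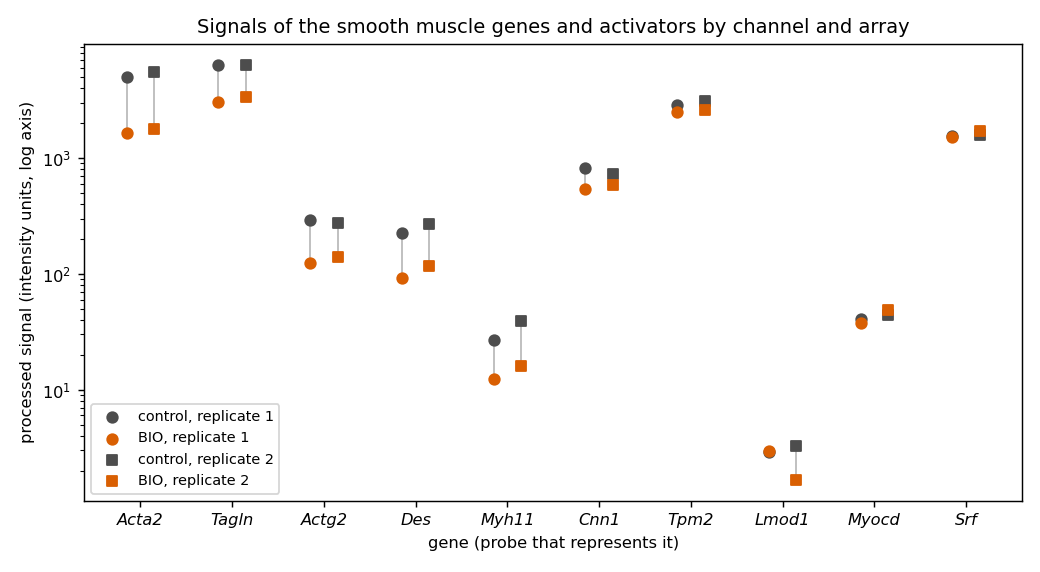
Processed signals of the probe representing each gene (log axis, intensity units), for control RNA (gray) and BIO RNA (orange) of replicate 1 (circles) and replicate 2 (squares). Lines join the channels of an array. Both BIO signals lie below both control signals for Acta2, Tagln, Actg2, Des, Myh11, Cnn1 and Tpm2, and the channels interleave for Myocd and Srf. Tpm2 did not pass the test, and this separation was not compared with that of all genes. Levels of different probes are not comparable.

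Acta2 encodes smooth muscle alpha-actin, an early marker of smooth muscle cells. Its probe (NM_007392) lies on chromosome 19 at 34316060 to 34316119 (mm9, minus strand). The processed signal, that is the background-subtracted and dye-normalized brightness of the probe, was 5030 for control RNA against 1630 for BIO RNA in replicate 1. In replicate 2 it was 5550 against 1780. The BIO channels were thus well below both control channels, and the channels of a group differed little between arrays. The log2 ratio of BIO over control was -1.57 in replicate 1 and -1.69 in replicate 2. The mean of -1.63 ± 0.11 (SE, n = 2) had a 95% interval from -1.89 to -1.38 and corresponds to a 3.1-fold lower signal (adjusted p = 7.8e-05, limma). Single spots ranged from -1.60 to -1.54 in replicate 1, where 3 spots were kept, and from -1.78 to -1.61 in replicate 2, where 4 were kept.

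Actg2, which encodes the gamma-actin of visceral smooth muscle, fell as well. Its probe (NM_009610, chromosome 6, 83462904 to 83462963) read 294 for control and 125 for BIO in replicate 1, then 274 and 141 in replicate 2. Groups did not overlap, but the size of the fall differed between arrays, with log2 ratios of -1.24 and -0.85. This difference of 0.39 exceeded that of 87.2% of all probes tested, for which the median was 0.162. On average the ratio was -1.04 ± 0.13 (SE, n = 2; adjusted p = 0.000905, limma). Of the other actins, the skeletal muscle gene Acta1 fell by 1.19 on the log2 scale and the cardiac gene Actc1 by 0.59. The signals of Acta1 were 206 and 225 in control, and 70.9 and 101 with BIO. The cytoplasmic actin genes had mean log2 ratios of -0.55 (Actb, adjusted p = 0.024) and -0.53 (Actg1, adjusted p = 0.0629). When median centering replaced loess, the calls of Actb and Actc1 were lost, with log2 ratios of -0.17 and -0.54. Actin transcripts are closely alike in sequence, and hybridization of one actin to the probe of another was not tested.

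Tagln encodes transgelin, also called SM22-alpha, an actin-binding protein. Its probe (NM_011526) lies on chromosome 9 at 45738097 to 45738156. Control RNA gave 6290 and 6380 in replicates 1 and 2, and BIO RNA gave 3050 and 3360. Both arrays had a nearly equal fall, with log2 ratios of -1.06 and -0.93. The mean was -0.99 ± 0.11 (SE, n = 2), a 1.99-fold lower signal (adjusted p = 0.000574, limma). The relatives Tagln2 and Tagln3, which are expressed outside smooth muscle, had log2 ratios of -0.25 and 0.09 and did not pass the test (adjusted p = 0.134 and 0.623).

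Cnn1 encodes calponin, an actin-binding protein of differentiated smooth muscle that inhibits the myosin ATPase. Its probe (NM_009922) lies on chromosome 9 at 21913058 to 21913117. The signal went from 819 in control to 537 with BIO in replicate 1, and from 728 to 588 in replicate 2. Both BIO signals were below both control signals, and the gap was narrower in replicate 2. Log2 ratios were -0.68 and -0.32, a difference larger than in 84.6% of all probes. The mean was -0.50 ± 0.13 (SE, n = 2), with a 95% interval from -0.79 to -0.22 and an adjusted p of 0.0226 (limma). This call was lost with the processed signals (adjusted p = 0.0723), at nearly the same log2 ratio of -0.49. Of its relatives, Cnn2 fell by 1.01 on the log2 scale, with -0.83 and -1.18 on the arrays, and Cnn3 did not pass the test.

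Myh11 encodes the smooth muscle myosin heavy chain, a late and specific marker of these cells. Its probe (NM_001161775, chromosome 16, 14202190 to 14202249) was dim. Its control signals of 27.1 and 39.1 in replicates 1 and 2 faced BIO signals of 12.4 and 16.1. The control channel was well above background on both arrays but the BIO channel in replicate 2 only, so Myh11 entered the test through its control channels only. Without it, 5 of 8 genes tested fell. Log2 ratios were -0.44 and -0.61, which averaged -0.53 ± 0.11 (SE, n = 2; adjusted p = 0.0117, limma). An offset of 50, added during background correction, pulls the ratios of dim probes toward 0. The processed signals, which carry no offset, were 2.19-fold lower in replicate 1 and 2.43-fold lower in replicate 2, and in a test on them the log2 ratio was -1.28 (adjusted p = 0.0014). The fold of replicate 1, and with it this ratio, rests on a BIO signal that was not well above background. When median centering replaced loess, the log2 ratio was -0.51 and the adjusted p 0.114. The non-muscle myosin gene Myh9 fell by 0.89 at the brightest of its probes and by 0.45 over their mean, Myh14 fell by 0.55, and Myh10 had a ratio of -0.30 that did not pass the test.

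Des encodes desmin, the intermediate filament protein of muscle. Its probe (NM_010043) is listed on chromosome 1 between 75363404 and 75363629. The signal dropped from 226 to 91.9 in replicate 1 and from 269 to 116 in replicate 2. The groups were clearly apart, and the fall was close to equal on the arrays, with log2 ratios of -1.23 and -1.10. The mean was -1.16 ± 0.11 (SE, n = 2), a 2.24-fold lower signal (adjusted p = 0.000279, limma). The mesenchymal filament gene Vim fell by 0.56, a call that was lost with median centering (log2 ratio -0.26, adjusted p = 0.588).

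Tpm2 encodes beta-tropomyosin, which lies along the actin filament. Its 2 probes are on chromosome 4, at 43531276 to 43531335 and at 43532262 to 43532321. The first went from 2850 in control to 2500 with BIO in replicate 1 and from 3090 to 2570 in replicate 2. BIO signals were slightly lower on both arrays, but the log2 ratio of -0.24 ± 0.11 (SE, n = 2) did not pass the test (adjusted p = 0.154, limma). Its 95% interval ran from -0.49 to 0.01. The second probe had ratios of -0.24 and -0.23 on the arrays. Tpm1, the alpha-tropomyosin gene, fell by 1.09 at the brightest of its probes (adjusted p = 0.000336) and by 0.64 over their mean. Tpm3 fell by 0.46, a call lost with median centering (log2 ratio -0.17), and Tpm4 did not pass the test. The difference between Tpm1 and Tpm2 was not itself tested.

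Lmod1 encodes leiomodin, which nucleates actin filaments in smooth muscle. Its probe (NM_053106, chromosome 1, 137264581 to 137264640) was not well above background in either channel of either array. Control signals of 2.92 and 3.24 stood against BIO signals of 2.97 and 1.66, so Lmod1 was not tested and no fold is given. Its relatives gave no uniform picture. Lmod2 was not above background either, and Lmod3 had a log2 ratio of 0.06. The tropomodulin gene Tmod1, whose product caps the pointed end of actin filaments, rose by 1.28, with 1.70 and 0.85 on the arrays, and Tmod2 and Tmod4 rose by 0.44 and 0.49. The calls of Tmod2 and Tmod4 were lost with median centering, at log2 ratios of 0.31 and 0.35.

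The activators Myocd and Srf did not pass the test. The Myocd probe (NM_145136, chromosome 11, 64991930 to 64991989) had control signals of 40.6 and 44.5 and BIO signals of 37.5 and 48.3 in replicates 1 and 2. Channels interleaved, and the sign differed between arrays, with log2 ratios of -0.14 and 0.08. The mean was -0.03 ± 0.11 (SE, n = 2; adjusted p = 0.873, limma), and its 95% interval from -0.30 to 0.23 leaves room for a small change in either direction. The probe was dim but well above background in every channel.

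Srf was measured by 2 probes on chromosome 17 (NM_020493). The brighter probe, at 46685306 to 46685365, went from 1550 to 1520 with BIO in replicate 1 and from 1590 to 1710 in replicate 2. Its log2 ratios were -0.07 and 0.08, averaging 0.00 ± 0.11 (SE, n = 2) with a 95% interval from -0.25 to 0.26 (adjusted p = 0.982, limma). The other probe gave 1070 and 1280 in replicate 1, and 1140 and 1150 in replicate 2, for control and BIO respectively. Its mean ratio was 0.08 (adjusted p = 0.662), so neither probe passed the test.

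**Figure D2:**
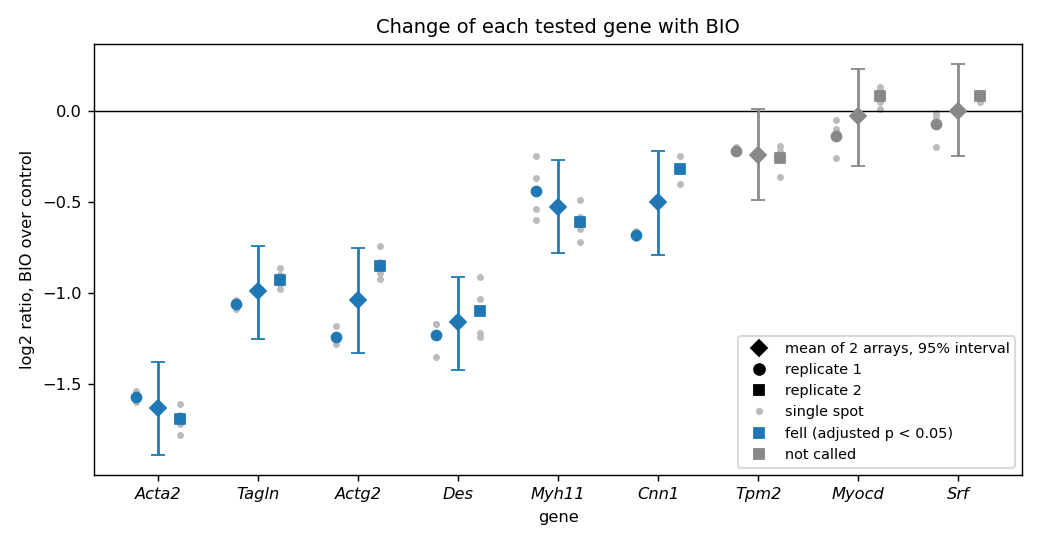
Log2 ratio of BIO over control for the 9 genes tested. Diamonds and bars give the mean of 2 arrays with its 95% interval, circles and squares replicates 1 and 2, and small dots single spots. Blue marks genes that fell at an adjusted p below 0.05. Acta2 at -1.63 lies lowest, and the intervals of Tpm2, Myocd and Srf include 0.

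In order of their log2 ratios the genes were Acta2, Des, Actg2, Tagln, Myh11, Cnn1, Tpm2, Myocd and Srf. The 95% intervals of all neighbors in this order overlapped. Those of Acta2 and Actg2 did not overlap, and neither did those of Tagln and Tpm2, nor those of Actg2 and Myocd. The differences between genes were not themselves tested.

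A list of further smooth muscle genes comprised 24 genes for contractile, adhesion and sarcolemmal proteins, of which 23 could be tested. Of these, 15 fell (65.2%, against 14.8% of all genes) and 1 rose (4.35%, against 9.14%). The other 7 did not pass the test, and the median log2 ratio of the list was -0.54. Synpo2, the gene for an actin-bundling protein, fell by 1.30 at the brightest of its probes and by 0.66 over their mean. The signals of the brightest probe were 294 and 329 in control, and 85.5 and 161 with BIO. Myl9, the gene for the regulatory light chain of smooth muscle myosin, fell by 1.23, from 12100 to 5160 in replicate 1 and from 13500 to 5880 in replicate 2. Itga8, which encodes an integrin of mesenchymal and smooth muscle cells, fell by 1.07. This was close to the value of the brightest probe of Tpm1, which also belongs to this list and is counted in it. The exception was the LIM protein gene Pdlim3, named after its values were seen, which rose by 0.74. Its signals were 240 and 296 in control, and 486 and 489 with BIO. With median centering 11 of the 23 fell, and 3 fell by the deposited scores, a rounded fold change per probe.

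Of 9 cofactors of SRF, all tested, 5 fell (55.6%, against 14.8% of all genes) and 1 rose (11.1%, against 9.14%), with a median of -0.41. This median is the value of Elk1, whose call was lost with median centering (log2 ratio -0.05) and over the mean of its probes (-0.16). The median of the list was then -0.13 and -0.22. With the processed signals 3 fell and 0 rose, and by the deposited scores 0 passed the test. Mkl1 and Mkl2, which encode the myocardin-related coactivators, had log2 ratios of -0.05 and -0.18 and did not pass the test (adjusted p = 0.771 and 0.33). Fhl2, the gene for a LIM cofactor, fell by 0.79, with -1.05 and -0.53 on the arrays. Elk3, which encodes a ternary complex factor, fell by 0.63, Hopx, whose product inhibits SRF, by 0.62, and Klf4, the gene for a repressor of contractile genes, by 0.53. Csrp2, which encodes a LIM protein that bridges SRF and GATA factors, rose by 0.44, from 19900 to 28800 in replicate 1 and from 21700 to 28800 in replicate 2. With the processed signals the calls of Klf4 and Csrp2 were lost, at the same log2 ratios of -0.53 and 0.44. Of 6 immediate early genes, which are SRF targets outside the contractile program, Fos fell by 0.57 and Egr2 by 0.47, which is 33.3% against 14.8% of all genes, while 4 did not pass the test. The call of Egr2 was lost with median centering (log2 ratio -0.59, adjusted p = 0.0524) and with the processed signals (log2 ratio -0.52, adjusted p = 0.0712).

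Genes that act upstream of smooth muscle differentiation in the ureter were assembled in a list of 12, all of which could be tested. Of these, 5 fell (41.7%, against 14.8% of all genes) and 1 rose (8.33%, against 9.14%), with a median of -0.22. Gata2, a transcription factor gene, fell by 0.69, from 21900 to 13000 in replicate 1 and from 20600 to 14100 in replicate 2. Bmp4, the gene for a mesenchymal signal that promotes smooth muscle differentiation, fell by 0.51 on each array, and the epithelial signal gene Shh by 0.43. Tshz3, which encodes a zinc finger factor required for Myocd expression in the ureter, rose by 0.55, with 0.81 and 0.29 on the arrays. With the processed signals its log2 ratio was the same but did not pass the test (adjusted p = 0.0685). Foxf1 and Sox9, named after their values were seen, changed sign between arrays, with log2 ratios of -0.80 and 0.48 for Foxf1 and of -0.80 and 0.34 for Sox9. With median centering 0 of the 12 genes fell at an adjusted p below 0.05, and with the processed signals 2 did.

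**Figure D3:**
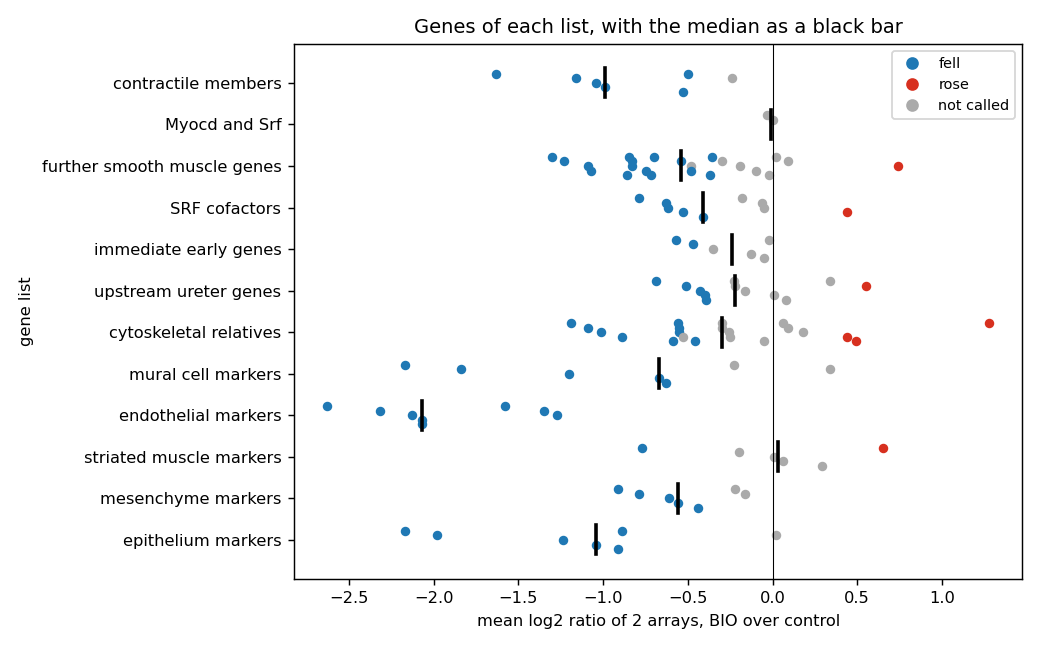
Mean log2 ratio of BIO over control for each tested gene, by list. Points are genes, colored by the limma call, and black bars are medians. The contractile genes have a median of -0.99 and Myocd and Srf one of -0.01, while endothelial markers reach the lowest median, -2.07.

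Most markers of vessels, mesenchyme and epithelium also fell, while 4 of the 6 striated muscle markers tested did not pass. Mural cells of vessels also express Acta2, Tagln and Myh11. Of 7 mural markers, 5 fell (71.4%, against 14.8% of all genes) and none rose (against 9.14%), with a median of -0.67. By the deposited scores 1 fell and 1 rose. Pdgfrb fell by 2.17, Rgs5 by 1.84, Abcc9 by 1.20 and Kcnj8 by 0.67. The markers that did not pass the test, named after their values were seen, were Cspg4 (log2 ratio -0.23) and Notch3, which had positive ratios of 0.33 and 0.35 on the arrays (mean 0.34, adjusted p = 0.0525). Notch3 passed as a rise over the mean of all probes of each gene (adjusted p = 0.0383) and by the deposited scores (adjusted p = 0.0342). The summed signal of the list was 24700 and 27300 in control, and 13100 and 15300 with BIO. Such sums follow the brightest probes of a list, as levels of different probes are not comparable. None of the 7 mural markers was near background. The part of mural cells in the fall of the contractile genes was not tested.

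All 8 endothelial markers fell, against 14.8% of all genes, with a median of -2.07. Their summed signal was 29100 and 35200 in control, and 5250 and 10200 with BIO. Cdh5, the gene for vascular endothelial cadherin, fell by 2.32, and Pecam1 by 2.13. Every marker of the list remained well above background with BIO. By the deposited scores 1 of the 8 passed the test as a fall, with a median of -2.08 for the list. How far these changes relate to those of the contractile genes was not tested.

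Of 10 skeletal and cardiac markers 6 could be tested. Ttn alone fell, by 0.77 (16.7% of the 6, against 14.8% of all genes), and Actn2 alone rose, by 0.65 (16.7%, against 9.14%). The call of Ttn was lost with the processed signals, with an offset of 16 and without the filter on dim probes. Of the 4 not called, Myog and Myh3 changed sign between arrays, with log2 ratios of -0.72 and 0.83 for Myog and of -0.62 and 1.21 for Myh3. Tnnt2 and Myh6 were dim, with signals from 5.52 to 27.4. The striated muscle actin genes Acta1 and Actc1, which fell as given above, were listed with the cytoskeletal relatives of the members instead. Actn2 was well above background in the BIO channel of both arrays but in the control channel of 1 only, and so entered the test only through its BIO channels. Myf5 and Ckm were not above background on any array, with signals from 1.16 to 4.22. The summed signal of the list was 322 and 377 in control, and 176 and 472 with BIO. Myod1 kept no spot in replicate 1, so only the replicate 2 sums contain it, at 93.2 for control and 68 for BIO RNA. These sums thus cover different genes and are not comparable between arrays. They also include the genes that could not be tested. Mesenchymal and epithelial markers of the ureter were present in every channel. Of 7 mesenchymal markers 5 fell (71.4%, against 14.8% of all genes), with a median of -0.56. Tbx18, a transcription factor gene that marks the ureteric mesenchyme, had a log2 ratio of -0.22 and did not pass the test. With median centering 1 of the 7 fell and the median was -0.26, and by the deposited scores 0 fell. Their summed signal was 244000 and 266000 in control, and 156000 and 171000 with BIO. It was led by the brightest probes, those of Col3a1, Col1a1 and Vim. Of 7 epithelial markers 6 fell (85.7%, against 14.8% of all genes), with a median of -1.04. Among these were Foxa1, which fell by 2.17, and Upk3a, by 1.98. The exception was Epcam, named after its values were seen, with a log2 ratio of 0.02 (adjusted p = 0.907, limma). By the deposited scores 1 of the 7 fell. The summed signal of the 7 epithelial markers was 83500 and 83900 in control, and 39400 and 48000 with BIO. The share of these tissues in each pool was not measured.

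**Figure D4:**
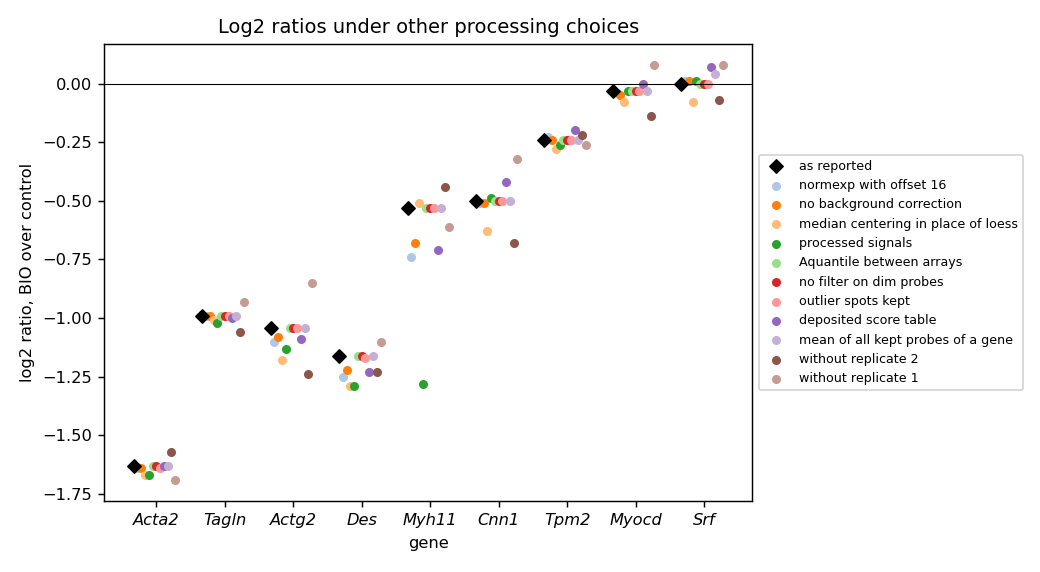
Log2 ratio of BIO over control for the 9 genes tested under each processing choice. Black diamonds are the values reported above, and circles are other background corrections, normalizations, filters and the single arrays. Myh11 moves most, from -0.53 to -1.28 with the processed signals, while every choice leaves Acta2 between -1.69 and -1.57.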

How the data were processed

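RNA of BIO-treated and DMSO-treated ureter explants had been hybridized together to Agilent 2-color arrays, 2 in number with exchanged dyes. The deposited scanner tables hold mean and local background intensities without normalization, and processed signal intensities that the authors obtained with Agilent Feature Extraction 10.7.3.1 (background-subtracted, detrended and dye-normalized by a linear and LOWESS step, per the file headers). The authors also deposited 1 score per probe and array, which behaves as a signed fold change, positive where BIO is higher, rounded to 1 decimal. Its making is not given in the sources used here, its column median was 1 on both arrays, and its centering is unknown.

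Mean intensities were corrected by normexp (offset 50) in limma 3.58.1 (R 4.3.3), log2 ratios were normalized by loess within arrays, and control and outlier spots were left out. The remaining spots of a probe, up to 4, were averaged. A probe was tested if more than a share of 0.5 of its spots was well above background in the control channels of both arrays or in the BIO channels of both. Ratios were turned to BIO over control and tested two-sided against 0 (lmFit, eBayes). P-values were adjusted by Benjamini-Hochberg over all 28824 probes, at a threshold of 0.05. A dye term leaves no residual degree of freedom. The prior SD was 0.162 with 7.14 degrees of freedom. The number of arrays limits the precision, with a median SE of 0.111. A gene is represented by its brightest probe. All 10 genes were named with every probe, and of the further lists up to 4 called genes with the largest changes, besides relatives and cofactors. The members and lists were chosen with earlier results of these data known. Tpm1, Vim, Tbx18, Foxf1 and Ckm are shared between lists, so the list counts are not those of separate gene sets. Probe coordinates are those of the files (mm9), for which no annotation was used. Promoters are RefSeq sequences of GRCm38.p6.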

Additional observations from a re-analysis of the deposited data

How the results depend on the processing

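The direction of all 6 genes that fell held under every alternative run and on each array. The median log2 ratio of the 9 genes, -0.53 as reported, was -0.74 with a normexp offset of 16, -0.68 without background correction, -0.63 with median centering in place of loess, -1.02 with the processed signals and -0.71 with the deposited score table. It was -0.75 with Myh11 left out, chosen after seeing the data. On single arrays it ranged from -0.68 to -0.61. The number of genes that fell was 5 with median centering, where Myh11 was lost, and 5 with the processed signals, where Cnn1 was lost. It was 2 with the deposited score table, namely Acta2 and Des, where Actg2 (adjusted p = 0.16), Tagln (0.0805), Myh11 (0.229) and Cnn1 (0.281) were lost at log2 ratios from -1.09 to -0.42. It was also 2 by the intensity and fold-change rule, and 2 to 4 by this rule on single arrays. A score of 1 decimal gives the same value on both arrays for 22% of the probes. None of the 9 rose under any alternative. Over all genes, 5160 changed as reported, 2769 after median centering and 3251 by the score table. Of these, 38.3%, 29.9% and 59.4% rose. The cause of these shifts was not tested. Scaling of average intensities between arrays leaves the ratios unchanged by construction. Low signal limits Myh11, Myocd and Lmod1. The comparison is paired by construction, as each array gives 1 ratio of BIO over the control of its number, and no further block could be fitted.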

Other observations

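CArG boxes were also counted in the RefSeq promoters (GRCm38.p6, 250 bases before the start) of the other lists. Of 24 further smooth muscle genes, 22 had a sequence, and 4 of these held an unchanged box, against 1.47% of all promoters. They were Myl9, Myl6, Vcl and Ldb3, with log2 ratios of -1.23, -0.75, -0.85 and 0.02. The first 3 fell with BIO (adjusted p = 0.000221, 0.00343 and 0.00111, limma, n = 2 arrays), the call of Myl6 being lost with median centering, and Ldb3 did not pass the test. Among 22 cytoskeletal relatives, 19 had a sequence and 4 held an unchanged box. These were Actg1, Acta1, Actc1 and Cnn2, with log2 ratios of -0.53, -1.19, -0.59 and -1.01, of which that of Actg1 did not pass the test. Of 6 SRF cofactors with a sequence 2 held an unchanged box, Fhl2 and Hopx, and of 4 immediate early genes 1 did, Egr2. Their log2 ratios are given above. No unchanged box was found in the upstream, mural, endothelial, striated muscle, mesenchymal and epithelial lists. A sequence was at hand for 6 of 12 upstream, 6 of 7 mural and 5 of 8 endothelial genes. The other lists had 9 of 10, 5 of 7 and 5 of 7, in this order. A box with 1 changed base (7.24% of all promoters) was held by 5 further smooth muscle genes and 3 cytoskeletal relatives. Kdr and Egfl7 (endothelial), Myh6, Ttn and Ckm (striated muscle), Tbx18 and Egr2 held one too, and no mural, epithelial or cofactor gene did. These genes are named for their boxes, whatever their values, and no relation between box and change was tested.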
